A study of Homo sapiens with 12 samples.

Results

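The gene expression of a NOTCH1 knockout line was compared with that of wild-type cells in DAOY, an established human medulloblastoma cell line. The comparison used 8 of the 12 RNA-seq libraries of the study, namely the 4 NOTCH1KO and the 4 WT libraries, chosen by their genotype label alone. The NOTCH1KO line carried NOTCH1 inactivated with CRISPR/Cas9, and WT cells were unedited DAOY cells. Both genotypes were grown in the same 4 cultures. Plates carried immobilised Jagged1, a Notch ligand, or Fc alone as its control, and the medium held DAPT for 12 h or its solvent DMSO. A single library was made per culture of each line, which gave 4 matched pairs with the same plate and drug. The remaining 4 libraries came from a NOTCH2KO line in the same cultures and were used to show where NOTCH1KO also differed from the other edited line. They also entered the fit, its low-expression filter and its estimate of the spread, and in a fit of the same genes without them 812 were higher and 1200 lower in NOTCH1KO, against 1884 and 2253 with them. Each genotype was represented by 1 line, and the sources do not say whether a line had grown from a single cell, so that what the knockout did and what set this line apart in other ways cannot be told apart.

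Notch receptors are cell-surface proteins that ligands such as Jagged1 on a neighbouring cell activate. The protease γ-secretase, which DAPT inhibits, then frees the intracellular domain, which enters the nucleus, joins the DNA-binding protein CSL (RBPJ) and switches on genes such as those of the HES and HEY repressors. In the cerebellum, where medulloblastoma arises, Notch signalling is known for holding progenitor cells in an undifferentiated state.

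The 4 NOTCH1KO libraries held an estimated 18.7 to 20.9 M reads and the 4 WT libraries 18.3 to 20.8 M. Reads were not counted, and these depths were worked out from the deposited coverage and FPKM values, taking reads of 51 bases. Gene levels below are in TPM, a transcript abundance corrected for gene length and library size. By the same estimate, 1 read in a 1-kb transcript counted for 0.102 to 0.117 TPM. The 4 values of a line are those of the Fc plate with DMSO and then DAPT, followed by those of the Jagged1 plate with DMSO and then DAPT. Differences are NOTCH1KO minus WT in log2(TPM + 1), with their SE. On this scale changes of weakly expressed genes appear smaller than they are. Adjusted p-values are those of limma with Benjamini-Hochberg adjustment over 17621 genes, and a gene is said to have risen or fallen at an adjusted p under 0.05. Since no culture of a line was repeated, p-values measure how far the genotype difference exceeded the spread left after additive culture terms, which may be technical. In bulk RNA, fewer cells of a kind and less RNA per cell cannot be told apart.

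The NOTCH1KO library on Fc with DAPT stood apart from the rest. Its correlations with the other 11 libraries lay between 0.887 and 0.945 over 12899 genes, whereas the best correlation of each of the other 7 NOTCH1KO and WT libraries lay between 0.95 and 0.962. In that pair 1935 genes differed by at least 1 on the log2 scale, against 801 to 954 in the other 3 pairs. Counts for the gene groups are therefore also given without this library, and without it 1376 genes were higher and 1950 lower in place of the counts given next. The medulloblastoma label was checked against marker genes. VIM, an intermediate filament gene of progenitor and mesenchymal cells, averaged 3647 in NOTCH1KO and 4473 in WT, and PAX6, a factor of the granule neuron lineage, averaged 16.7 and 19.4. Among the other markers of these 2 lists, ATOH1 and NEUROD1 were at 0 in all NOTCH1KO libraries, BARHL1 and HES5 in all WT libraries, and FABP7 in both genotypes. In each line 4 of the 7 granule neuron lineage markers averaged at least 1 TPM. Summed granule neuron lineage markers ranged from 31.6 to 44.8 in NOTCH1KO and from 46.0 to 49.4 in WT. Summed mesenchymal markers ranged from 5280 to 7865 in NOTCH1KO and from 3756 to 5490 in WT, with overlap. Most of this sum was fibronectin (FN1), with means of 5400 and 3510.5. Summed epithelial markers, led by keratin 18, ranged from 589 to 760 in NOTCH1KO and from 763 to 1036 in WT. Blood markers summed to at most 1.14 in NOTCH1KO and 2.77 in WT, and PTPRC, CD3E and HBB were at 0 in both. Genes were named by size of change or by list membership as set out with the methods, and list members beyond those were chosen after their values were seen.

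Of 17621 genes tested, 1884 were higher in NOTCH1KO (10.7%) and 2253 lower (12.8%). Of the 4137 genes called, 4053 kept one direction in all 4 pairs. The 4 NOTCH1KO libraries lay wholly above the 4 WT libraries for 2095 genes (11.9%) and wholly below them for 2198 (12.5%). A log2 difference of at least 1 was reached by 208 of the genes that rose and 590 of those that fell. The balance between rises and falls depended on scaling, with 45.5% of the calls higher as deposited and 56.1% with each library centred on its median (2459 higher and 1926 lower), a step that moved the median of all genes by 0.05. Against NOTCH2KO, 2089 genes were higher in NOTCH1KO (11.9%) and 3489 lower (19.8%).

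NOTCH1, the targeted receptor gene (ENSG00000148400, GRCh37 chromosome 9, 139388896 to 139440314), was examined first. It had a TPM of 0.874, 0.278, 0.488 and 0.619 in NOTCH1KO against 3.32, 3.101, 3.57 and 2.78 in WT. All 4 edited libraries lay below all WT libraries, with a residual level that did not reach 0 (log2 difference -1.43 ± 0.14, adjusted p = 0.000436). The files give no transcript forms, so whether the remaining reads came from edited transcripts cannot be seen, and NOTCH1 lies in the part of chromosome 9 described below. NOTCH2, the more abundant receptor, stood at 107, 109, 87.2 and 111 in NOTCH1KO against 74.9, 74.9, 78.1 and 94.9 in WT, above its partner in each of the 4 pairs without passing the test (0.35 ± 0.13, adjusted p = 0.0756). NOTCH3 was high in 1 culture only. It stood at 1.79, 0.107, 7 and 0.208 in NOTCH1KO against 1.72, 0.126, 16.2 and 0.144 in WT, so that Jagged1 with DMSO held the top level in both genotypes (-0.25 ± 0.66, adjusted p = 0.817).

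Among the repressor genes that Notch switches on, HES1 and HES4 fell, and HEY1 was lower in every pair without passing the test. HES1 stood at 35.5, 17.9, 55 and 24.99 in NOTCH1KO against 46.99, 23.9, 83.5 and 31.8 in WT. It was below its partner in each of the 4 pairs, although the groups overlapped, and both lines had their top level on Jagged1 with DMSO and lower levels with DAPT (-0.43 ± 0.11, adjusted p = 0.0204). HES4 was at 0, 0, 2.53 and 0.612 in NOTCH1KO against 2.35, 1.72, 4.62 and 0.878 in WT (-1.02 ± 0.28, adjusted p = 0.0328). The HES1 call was lost without the NOTCH1KO library on Fc with DAPT or either DMSO library of WT, and the HES4 call without any of these, the NOTCH1KO library on Fc with DMSO or the WT library on Fc with DAPT (adjusted p up to 0.105). HEY1 stood at 7.85, 4.64, 31.5 and 3.81 in NOTCH1KO against 11.5, 7.498, 56.6 and 10.9 in WT (-0.81 ± 0.34, adjusted p = 0.122). Jagged1 with DMSO thus held the highest HEY1 level in both lines. NRARP, which encodes a feedback inhibitor of the Notch complex, was at 4.49, 3.22, 5.05 and 3.74 against 3.38, 2.82, 5.58 and 2.25 in WT (0.22 ± 0.16, adjusted p = 0.339). Like NOTCH1, this gene lies in the part of chromosome 9 described below.

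Of 20 Notch receptors and target genes listed, 14 were tested, 6 of which fell and 1 rose (median log2 difference -0.34, against 0.00 for all genes). These shares were 42.9% lower and 7.1% higher, against 12.8% and 10.7% of all genes. The falls included that of NOTCH1 itself, the edited gene, which lies on chromosome 9 beyond 70 Mb. Without the NOTCH1KO library on Fc with DAPT, or without the WT library on Fc or on Jagged1 with DMSO, 3 fell in place of 6. CCND1, the cyclin D1 gene, fell at 172, 148, 138 and 152 against 249, 234, 247 and 239 in WT (-0.67 ± 0.08, adjusted p = 0.00093), and DTX3, a Deltex family ubiquitin ligase gene, fell as well (-0.72 ± 0.15, adjusted p = 0.0119). The gene that rose was NOX4, which encodes a hydrogen peroxide-producing oxidase, at 9.31, 7.73, 10.8 and 5.05 in NOTCH1KO against 4.93, 0.717, 4.57 and 0.773 in WT (1.498 ± 0.33, adjusted p = 0.0139). In WT both DAPT libraries were the low ones, and the NOTCH1KO libraries lay above all 4 of WT. The call was lost without the WT library on Fc with DAPT (adjusted p = 0.0511). The study also turned on the hypoxia-inducible factors. HIF1A stood at 215, 195, 237 and 178 in NOTCH1KO against 266, 224, 399 and 270.2 in WT (-0.46 ± 0.10, adjusted p = 0.0117). It was lower in all 4 pairs, although the groups overlapped. The gene for HIF2α, EPAS1, stood at 11.3, 14.5, 24.8 and 19.3 against 13.99, 15.2, 42.9 and 19.5 (-0.28 ± 0.19, adjusted p = 0.326). EPAS1 was lower in NOTCH1KO than in NOTCH2KO, where it stood at 34.6, 19.2, 60.3 and 42.3 (-1.06, adjusted p = 0.00427).

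**Figure D1:**
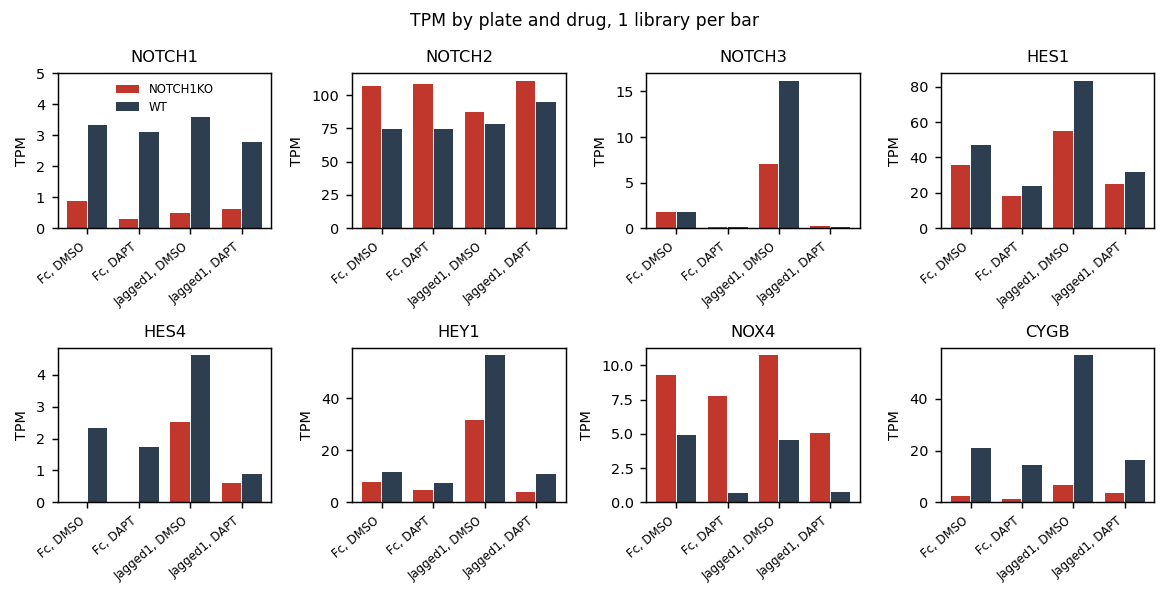
TPM (vertical axes, each from 0) of 8 genes in the 4 cultures, with 1 bar per library and the NOTCH1KO bar left of the WT bar. NOTCH1 was lower in NOTCH1KO in every culture, HES1, HES4 and HEY1 had their highest bars on Jagged1 with DMSO in both lines, and NOX4 was higher in NOTCH1KO throughout.

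The letters GTGGGAA, the core that CSL recognises, were searched on both strands of RefSeq promoters (GRCh38.p14, 250 bases before to 50 after the start). They were present in 4 of the 9 promoters matched for this list, those of HES1, HES4, HEY2 and NOX4, and in 5.6% of the 10870 promoters matched to tested genes. The stretches of the 2 repressor genes that fell and of the gene that rose are shown for comparison, with the CSL letters in capitals (in NOX4 on the opposite strand). They cover chr3:194136043-194136102, plus strand for HES1, chr1:1000135-1000194, minus strand for HES4 and chr11:89491566-89491625, minus strand for NOX4.
HES1: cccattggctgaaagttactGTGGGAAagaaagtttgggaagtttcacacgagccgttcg
HES4: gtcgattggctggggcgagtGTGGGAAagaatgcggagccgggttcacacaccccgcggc
NOX4: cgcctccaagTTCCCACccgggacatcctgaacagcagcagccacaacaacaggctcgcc
Counted from the start, the letters began at -85 in HES1, -77 in HES4 and -240 in NOX4. A match of letters does not show a bound site.

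The largest rises brought together cell-surface, matrix and germ-cell genes. PAGE2B, a cancer-testis gene on the X chromosome with near-identical copies, stood at 18.8, 25.9, 24.9 and 22.97 in NOTCH1KO and was nearly absent in WT, at 0, 0, 0.727 and 0 (4.39 ± 0.17, adjusted p = 5.43e-06). It was at 0 in all 4 NOTCH2KO libraries. NXF2, a testis RNA export factor gene that also has a near-identical copy, was at 11.2, 14.5, 9.802 and 10.4 against 3.604, 4.41, 0.988 and 0.855 in WT (1.996 ± 0.34, adjusted p = 0.00489). WISP1, which encodes a matricellular protein, moved with the culture in both lines. It stood at 69.5, 25.7, 89.2 and 28.7 in NOTCH1KO against 5.98, 2.29, 15.6 and 2.68 in WT, with the 2 DAPT libraries lowest in each line, and every NOTCH1KO library above every WT library (2.95 ± 0.27, adjusted p = 0.000294). TMEM119, a transmembrane protein gene known from bone formation, was also highest on Jagged1 with DMSO in both lines, at 30.98, 13.98, 57.8 and 21.1 in NOTCH1KO against 4.93, 3.93, 8.84 and 5.73 in WT (2.08 ± 0.28, adjusted p = 0.00166).

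THBS2, the thrombospondin 2 matrix gene, stood at 70.6, 68.5, 61.5 and 79 in NOTCH1KO against 16.6, 18.6, 17.02 and 13.1 in WT (2.04 ± 0.15, adjusted p = 0.000107). It was lower still in NOTCH2KO, at 2.26, 1.58, 2.604 and 2.28. HAPLN1 encodes the link protein that ties hyaluronan to proteoglycans. It rose at 12.6, 13.2, 5.63 and 10.04 against 0.911, 2.09, 0.658 and 1.06 in WT (2.36 ± 0.15, adjusted p = 5.52e-05), and did not differ detectably from NOTCH2KO, which stood at 10.1, 13.3, 7.62 and 11.9 (-0.08, adjusted p = 0.708). MME, the gene of the cell-surface peptidase neprilysin, stood at 10.2, 27.2, 13.3 and 20.6 in NOTCH1KO against 2.97, 1.56, 0.691 and 2.79 in WT (2.64 ± 0.31, adjusted p = 0.000985). PLAC8, a small cysteine-rich protein gene, was uneven across cultures, at 24.2, 25.5, 54.3 and 100.1 in NOTCH1KO against 4.48, 6.27, 1.31 and 6.11 in WT, with the Jagged1 libraries of NOTCH1KO highest (3.12 ± 0.40, adjusted p = 0.00136). The remaining rises, all without overlap, were those of the lipid phosphatase gene PPAPDC1A (2.41 ± 0.13), PRR9 (2.36 ± 0.17) and SUSD5 (1.88 ± 0.17). Of the rises named here, HAPLN1 and SUSD5 did not pass the test against NOTCH2KO (SUSD5 adjusted p = 0.0797), and the others were higher in NOTCH1KO.

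**Figure D2:**
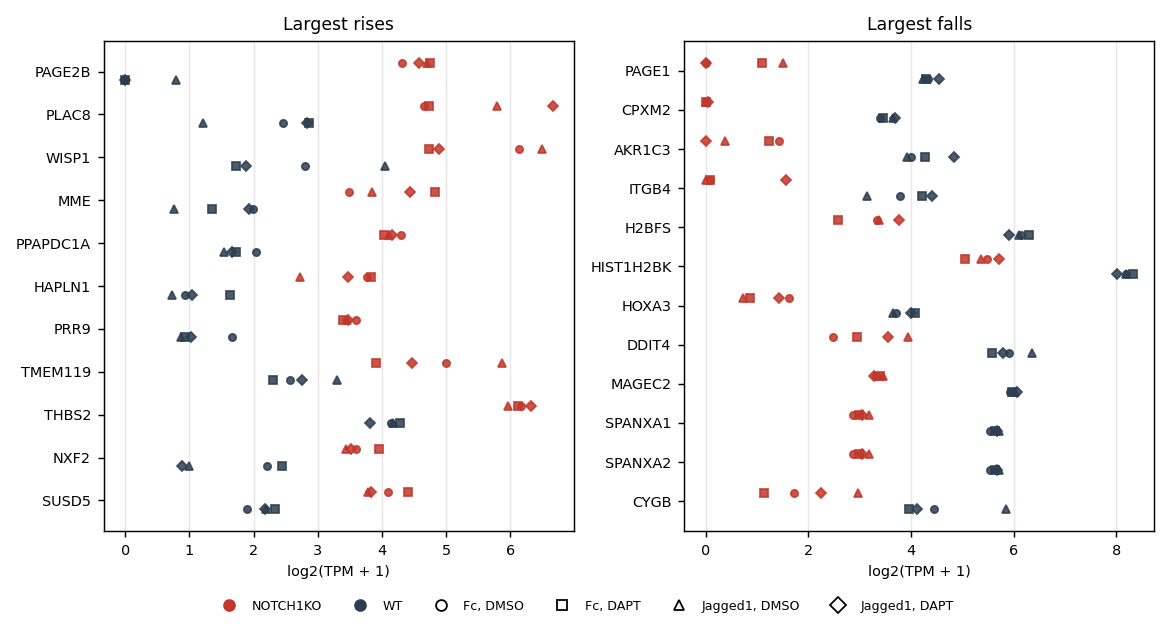
Levels as log2(TPM + 1) (horizontal axis) of the largest rises and falls of NOTCH1KO against WT, with 1 point per library, NOTCH1KO above WT in each row and the symbol giving the culture. No NOTCH1KO point crosses the WT points of its gene, since lack of overlap was one of the conditions for being shown.

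Several of the largest falls were losses to near 0. CPXM2, which encodes a carboxypeptidase-like secreted protein, was at 0, 0, 0 and 0.03 in NOTCH1KO against 9.53, 9.93, 11.6 and 11.8 in WT (-3.54 ± 0.10, adjusted p = 3.96e-07), and at 22, 22.8, 22.5 and 22.2 in NOTCH2KO. AKR1C3, the gene of a steroid-reducing enzyme, was at 1.71, 1.36, 0.298 and 0 against 15.03, 18.4, 14.1 and 27.5 in WT (-3.49 ± 0.34, adjusted p = 0.000424). ITGB4, the laminin receptor subunit gene, was at 0.0569, 0.0549, 0 and 1.98 against 12.9, 17.7, 7.89 and 20.4 in WT (-3.46 ± 0.28, adjusted p = 0.000173), so that Jagged1 with DAPT held nearly all of what was left in NOTCH1KO. The germ-cell gene PAGE1 was at 0, 1.14, 1.84 and 0 in NOTCH1KO against 19.3, 18.6, 17.9 and 22.2 in WT (-3.70 ± 0.30, adjusted p = 0.000173), and at 0 in every NOTCH2KO library. It was thus at or near 0 in both edited lines.

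MAGEC2 and SPANXA1, cancer-testis genes of the X chromosome, varied little within each line. MAGEC2 stood at 8.98, 9.52, 9.99 and 8.76 in NOTCH1KO against 59.6, 61.7, 63.9 and 66.3 in WT (-2.63 ± 0.07, adjusted p = 3.96e-07). SPANXA1 stood at 6.297, 6.97, 8.03 and 7.24 against 45.7, 49.1, 51.3 and 50.3 in WT (-2.63 ± 0.07, adjusted p = 3.96e-07). SPANXA2 had the same values as SPANXA1 in every library, so that both count as 1 measurement of a pair of near-identical copies. In NOTCH2KO both genes were above NOTCH1KO (MAGEC2 77.8 and SPANXA1 119 on average). The germ-cell genes therefore moved in both directions, with PAGE2B and NXF2 higher in NOTCH1KO and PAGE1, MAGEC2 and SPANXA1 lower.

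CYGB, the gene of the oxygen-binding protein cytoglobin, stood at 2.302, 1.202, 6.82 and 3.77 in NOTCH1KO against 20.9, 14.6, 56.95 and 16.4 in WT (-2.58 ± 0.24, adjusted p = 0.000298). Jagged1 with DMSO was the highest culture in both lines. HOXA3, a homeobox gene of anterior body identity, was at 2.102, 0.815, 0.648 and 1.68 against 12.1, 15.9, 11.6 and 15.04 in WT (-2.70 ± 0.52, adjusted p = 0.00828), while NOTCH2KO was split by drug, at 1.56, 20.2, 2.38 and 11.7. Of 39 HOX genes 35 were tested, and 6 fell and 0 rose (17.1% lower, against 12.8% of all genes; median -0.22), with 3 falls without the NOTCH1KO library on Fc with DAPT or WT on Jagged1 with DMSO, and 2 without NOTCH1KO on Jagged1 with DMSO or WT on Fc with DAPT. The histone genes HIST1H2BK and H2BFS, members of a family of near-identical copies whose reads can be split between genes, stood at 43.6, 32.2, 40.01 and 51.5 against 292, 320.4, 293 and 258 in WT for HIST1H2BK (-2.78 ± 0.15, adjusted p = 2.55e-05) and at a mean of 9.05 against 68.8 for H2BFS (-2.85 ± 0.21). Both histone genes were also lower than WT in NOTCH2KO, with means of 66.7 for HIST1H2BK (-2.12, adjusted p = 0.00011) and 17.97 for H2BFS (-1.88, adjusted p = 0.000998). NOTCH1KO was below NOTCH2KO in each (adjusted p = 0.011 and 0.00936). The fall of DDIT4 is given with the stress genes below.

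Interferon-stimulated genes, the antiviral set that interferons switch on through STAT and IRF factors, were lower across most of the list. All 37 were tested, and 29 fell and 1 rose (78.4% lower, against 12.8% of all genes; median -0.74). Without the NOTCH1KO library on Fc with DAPT the counts were 28 and 1, and over the 8 libraries left out in turn between 24 and 28 fell. For 29 of the 37 the NOTCH1KO libraries lay wholly below WT, against 12.5% of all genes. IFI44L stood at 0.547, 1.06, 0.177 and 0.396 in NOTCH1KO against 11.1, 9.64, 6.21 and 7.49 in WT (-2.64 ± 0.27, adjusted p = 0.000496). RSAD2, which encodes the antiviral enzyme viperin, stood at 2.85, 3.69, 1.44 and 2.72 against 12.2, 14.97, 11.2 and 15.7 in WT (-2.01 ± 0.27, adjusted p = 0.0016), a level not detectably different from NOTCH2KO at 2.68, 1.996, 4.96 and 3.12 (adjusted p = 0.645). In neither gene did the lines overlap. The ubiquitin-like modifier gene ISG15 was at 46.8, 16.3, 39.6 and 71.5 against 192, 229.6, 125.3 and 119 in WT (-2.03 ± 0.40, adjusted p = 0.00885), with the library that stood apart lowest.

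The fall was uneven within the list. The 2′-5′ oligoadenylate synthetase genes OAS1 (-1.94 ± 0.15), OAS2 (-1.85 ± 0.22) and OASL (-1.92 ± 0.09) fell more than OAS3 (-0.56 ± 0.10), and IFIT2 (-1.27 ± 0.14) and IFIT3 (-1.17 ± 0.08) fell while IFIT1 (-0.35 ± 0.17, adjusted p = 0.179) and IFIT5 (0.02 ± 0.14, adjusted p = 0.923) were not called. The member that rose was GBP1, a guanylate-binding protein gene, at 126, 105, 139.5 and 113 in NOTCH1KO against 81.6, 76.3, 92.95 and 90.8 in WT (0.49 ± 0.07, adjusted p = 0.0026). Compared with NOTCH2KO, 25 of the 37 were lower in NOTCH1KO and 0 higher (against 19.8% and 11.9% of all genes), and 23 were lower than in both other lines.

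Promoters of this list carried the interferon-stimulated response element core. The letters GAAANNGAA on either strand were found in 23 of 30 matched promoters of the list, against 6.4% of the 10870 promoters of tested genes. Of the genes that fell by at least 1 on the log2 scale, a group that includes members of this list, 10.4% had them. The promoters of the 3 members described above and of GBP1, the member that went the other way, are shown with the core in capitals, as its reverse complement where the match is on the opposite strand. They cover chr1:1013364-1013424, plus strand for ISG15, chr1:78620264-78620403, plus strand for IFI44L, chr2:6865786-6865845, plus strand for RSAD2 and chr1:89065295-89065354, minus strand for GBP1.
ISG15: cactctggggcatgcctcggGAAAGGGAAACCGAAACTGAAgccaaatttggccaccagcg
IFI44L: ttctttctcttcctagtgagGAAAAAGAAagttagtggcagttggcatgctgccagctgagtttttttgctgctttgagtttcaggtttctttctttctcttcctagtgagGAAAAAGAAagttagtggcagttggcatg
RSAD2: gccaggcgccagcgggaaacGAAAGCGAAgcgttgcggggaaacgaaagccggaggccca
GBP1: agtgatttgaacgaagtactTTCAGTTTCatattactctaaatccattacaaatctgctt
In ISG15 3 overlapping matches began at -113, -107 and -101. The element was therefore present both in members that fell and in the member that rose.

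The genes that sense viral RNA or carry the interferon signal were lower in part. Of 27 tested, 12 fell and 0 rose (44.4% against 12.8%; median -0.30). Without the library that stood apart 10 fell, and without the WT library on Fc with DAPT 7 fell. DDX58 encodes the RNA sensor RIG-I. It stood at 27.1, 35.8, 27.4 and 32.3 in NOTCH1KO against 58.9, 68.2, 67.7 and 71.8 in WT (-1.10 ± 0.10, adjusted p = 0.000274). DHX58, its regulator LGP2, stood at 2.83, 1.71, 2.85 and 3.85 against 10.6, 11.3, 6.38 and 9.33 (-1.46 ± 0.21, adjusted p = 0.00212). The transcription factor gene IRF7 fell (-1.14 ± 0.32, adjusted p = 0.0328), a call lost in 6 of the 8 fits with a library left out, namely those without any library of either line other than Jagged1 with DAPT (adjusted p up to 0.104). STAT2, a factor that carries the signal to the nucleus, did not pass, at 38.2 ± 4.403 in NOTCH1KO against 46.95 ± 4.58 in WT (mean ± SD, n = 4 each; -0.29 ± 0.09).

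Genes of antigen presentation by MHC class I and of complement were lower as well. Of 20 class I and antigen processing genes 19 were tested, and 11 fell and 2 rose (57.9% and 10.5%, median -0.45). Of all genes 12.8% fell and 10.7% rose, so the share that rose was near that of all genes. The counts were again 11 and 2 without the library that stood apart. The class I heavy chain gene HLA-E stood at 76.6, 54.6, 85.01 and 83.6 in NOTCH1KO against 148, 184, 148 and 150.5 in WT (-1.08 ± 0.15, adjusted p = 0.00213), and HLA-F fell too (-1.41 ± 0.26, adjusted p = 0.00678). The classical genes HLA-B (-0.79 ± 0.11) and HLA-C (-0.67 ± 0.10) fell with them, and their reads may be shared among family members. The members that rose were chaperones of the endoplasmic reticulum, CALR and PDIA3. CALR, the calreticulin gene, stood at 1791, 1434, 1428 and 1356 in NOTCH1KO against 758, 817, 776 and 709 in WT (0.97 ± 0.14, adjusted p = 0.00258). It was not detectably different from NOTCH2KO (0.14, adjusted p = 0.495). Of 20 complement and coagulation genes tested out of 23, 11 fell and 3 rose (55.0% lower; median -0.48), and 10 and 2 without the library that stood apart. C1R, a protease gene of the first complement component, stood at 11.7, 10.8, 15.4 and 14.7 against 28.9, 29.1, 33.01 and 34.6 in WT (-1.21 ± 0.10, adjusted p = 0.000197). CFB, the factor B gene, was at 3.05, 1.31, 2.16 and 2.36 against 6.68, 12.9, 8.11 and 12.1 (-1.75 ± 0.30, adjusted p = 0.00521). CFI, the factor I gene, fell by 1.68, a call lost in 3 of the 8 fits, those without NOTCH1KO on Jagged1 with DAPT or without either Jagged1 library of WT (adjusted p up to 0.0563).

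Integrated stress response genes, which the factor ATF4 drives when cells lack amino acids or misfold proteins, were lower as well. Of 22 listed genes 21 were tested, and 14 fell and 0 rose (66.7% against 12.8%; median -1.23), again 14 and 0 without the library that stood apart. DDIT4, which encodes an inhibitor of the growth kinase complex mTORC1, stood at 4.58, 6.78, 14.4 and 10.7 in NOTCH1KO against 59.5, 47.2, 81.2 and 54.4 in WT (-2.68 ± 0.22, adjusted p = 0.000167). NUPR1, a stress-responsive chromatin protein gene, stood at 7.22, 5.24, 7.01 and 15.1 against 39.9, 55.4, 47.8 and 51.4 in WT (-2.45 ± 0.22, adjusted p = 0.000251). Both lay far outside the WT libraries in all pairs. JDP2, a gene of the AP-1 family, stood at 0.891, 0.747, 0.942 and 1.38 against 4.14, 14.9, 12.5 and 11.2 (-2.45 ± 0.31, adjusted p = 0.00131). Means in NOTCH2KO lay between those of the other lines, at 18.04 for DDIT4, 16.4 for NUPR1 and 6.64 for JDP2. NOTCH1KO was below NOTCH2KO in each (adjusted p = 0.00861, 0.0116 and 0.00319). Against WT, NOTCH2KO was lower for DDIT4 and NUPR1 (-1.67 and -1.51, adjusted p = 0.00178 and 0.0027). JDP2 did not differ detectably between NOTCH2KO and WT (-0.63, adjusted p = 0.195). ATF4 itself fell less, at 196, 235, 212 and 208 in NOTCH1KO against 329, 338, 315 and 327 in WT (-0.62 ± 0.06, adjusted p = 0.000428). DDIT3, the CHOP factor gene, and ATF3 did not pass the test (-0.52 ± 0.27 and -0.01 ± 0.34).

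The same direction was found in genes that make or import amino acids, several of which are on both lists. Of 24 tested, 13 fell and 0 rose (54.2% lower, against 12.8% of all genes, with a median of -0.49). The counts were also 13 and 0 without the library that stood apart. The glycine transporter gene SLC6A9 stood at 1.96, 2.41, 2.82 and 3.44 in NOTCH1KO against 13.6, 15.4, 14.6 and 17.4 in WT (-2.16 ± 0.11, adjusted p = 2.11e-05). PSAT1 of serine synthesis stood at 86.5, 107, 84.9 and 90.7 against 270.4, 279.6, 306 and 332 (-1.68 ± 0.09, adjusted p = 2.7e-05), and the other enzyme genes of that pathway, PHGDH (-1.18 ± 0.08) and PSPH (-1.21 ± 0.20), fell with it. PSAT1 lies on chromosome 9 beyond 70 Mb, a stretch that was lower as a whole. The cystine transporter gene SLC7A11 stood at 3.16, 3.92, 2.34 and 3.03 against 9.25, 8.69, 15.8 and 11.2 (-1.55 ± 0.19, adjusted p = 0.00114). The neutral amino acid carrier SLC38A2 did not follow (0.31 ± 0.10, adjusted p = 0.0579). Of 20 cytosolic aminoacyl-tRNA synthetase genes, which load amino acids onto tRNA, 6 fell and 2 rose, with 1 rise without NOTCH1KO on Fc with DMSO or either Fc library of WT. GARS stood at 652, 792, 817 and 687 against 1159, 1166, 1281 and 1181 in WT (-0.70 ± 0.07, adjusted p = 0.000321), and CARS and WARS fell too (-0.59 ± 0.08 and -1.04 ± 0.20). In NOTCH2KO, GARS and CARS were also below WT (-0.50 and -0.56, adjusted p = 0.00184 and 0.0027).

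The letters TGATGNAA, a composite element of ATF4 and C/EBP, were found on either strand in 3 of 18 matched promoters of the stress list (ASNS, ATF3 and CHAC1) and in 1.6% of all 10870. The 2 of these genes that fell are shown, with the letters in capitals. ASNS encodes asparagine synthetase (-0.67 ± 0.20) and CHAC1 an enzyme that degrades glutathione (-2.31 ± 0.17). They cover chr7:97872437-97872496, minus strand for ASNS and chr15:40953242-40953301, plus strand for CHAC1, where the match is on the opposite strand.
ASNS: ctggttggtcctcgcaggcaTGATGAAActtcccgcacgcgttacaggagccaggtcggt
CHAC1: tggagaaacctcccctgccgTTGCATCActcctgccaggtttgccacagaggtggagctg

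**Figure D3:**
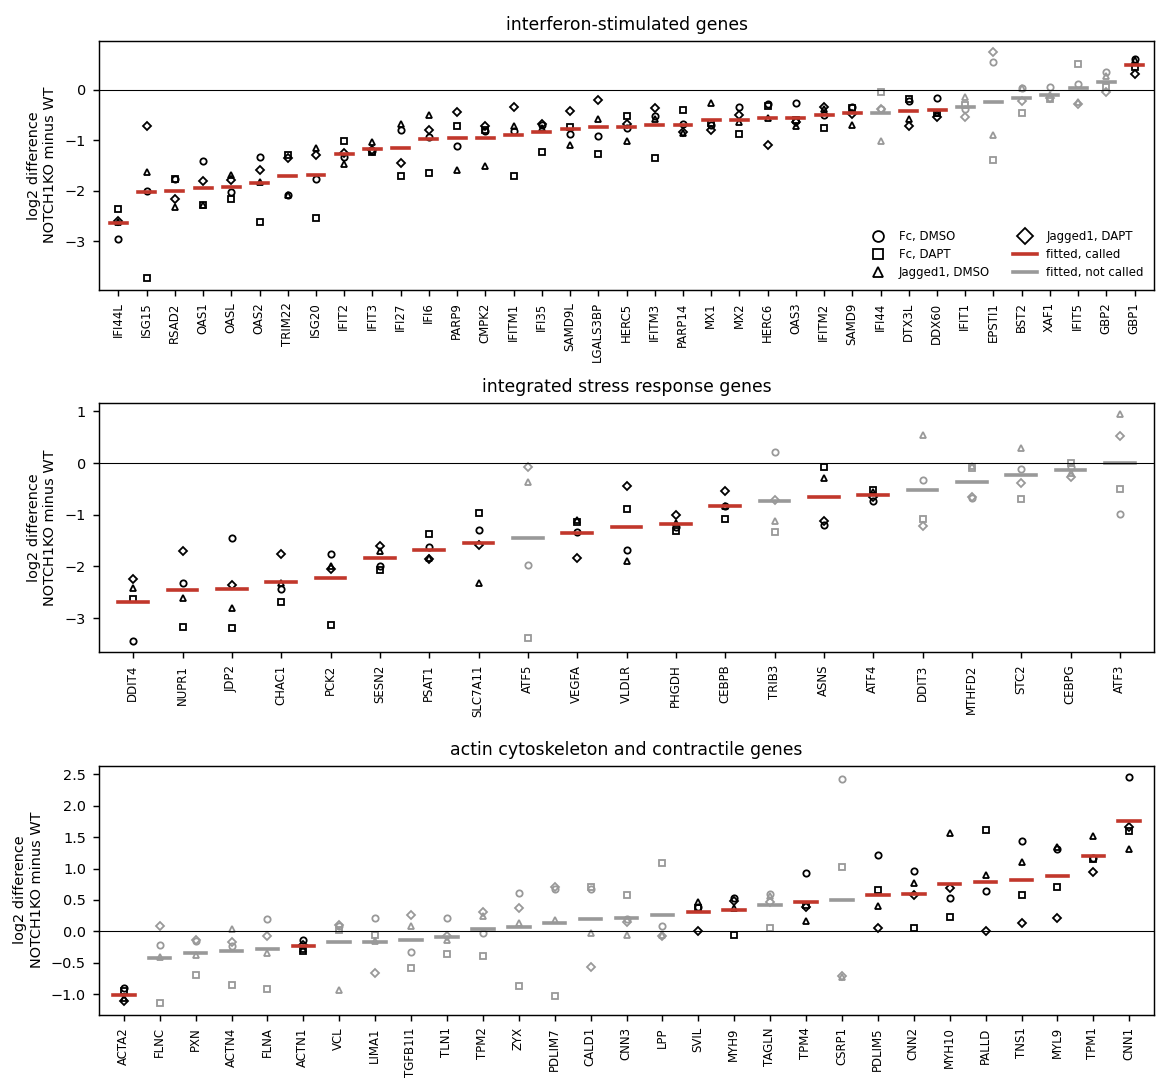
Log2 difference of NOTCH1KO minus WT (vertical axis) for tested members of the interferon-stimulated, integrated stress response and actin lists, with 1 open symbol per matched pair and a bar for the fitted value, red where the gene was called. GBP1 is the only red bar above 0 among the interferon-stimulated genes, the stress list has none above 0, and for ISG15 the pair on Fc with DAPT lies farthest down.

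Genes of detoxification and of the antioxidant factor NRF2 fell without any rise. Of 33 listed, 30 were tested, and 13 fell and 0 rose (43.3% lower, against 12.8% of all genes, with a median of -0.31). The counts were 12 and 0 without the library that stood apart. The members that fell most were the aldo-keto reductases, a family of near-identical copies. AKR1C1 stood at 0.853, 0.242, 0.129 and 0.503 in NOTCH1KO against 4.604, 6.398, 8.66 and 7.25 in WT (-2.43 ± 0.27, adjusted p = 0.000667), and AKR1C2 averaged 0.0463 ± 0.0589 against 4.82 ± 1.15 (SD, n = 4 each). HMOX1, the gene of the haem-degrading enzyme, stood at 16.7, 13.9, 15.5 and 18.98 against 51.4, 62.5, 44.9 and 49.8 in WT (-1.62 ± 0.12, adjusted p = 9.95e-05). Other members were not called, among them NQO1 at 71.2 ± 14.1 against 72.1 ± 11.2 (-0.03 ± 0.16) and GCLM at 139 ± 13.9 against 133 ± 17.8 (0.06 ± 0.11). Metallothionein genes, whose products bind zinc and copper, showed 4 falls and 0 rises among 7 tested of 10 (57.1% lower, against 12.8% of all genes). MT2A stood at 303, 193, 180.2 and 372 against 735, 819.8, 484 and 549 in WT (-1.33 ± 0.20, adjusted p = 0.00294), and MT1X fell by a like amount (-1.32 ± 0.21, adjusted p = 0.00375).

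Lysosome and autophagy genes fell more often than they rose, with 11 lower and 3 higher of 30 tested (36.7% lower; median -0.25). The counts were 11 and 2 without the library that stood apart. Falls numbered 7 without NOTCH1KO on Fc with DMSO, and rises 1 without that library or without WT on Fc with DMSO or on Jagged1. The protease gene CTSD stood at 199, 117, 139 and 215 in NOTCH1KO against 386, 457, 373 and 404 in WT (-1.31 ± 0.18, adjusted p = 0.00197). NPC2, a lysosomal cholesterol carrier gene, stood at 56.4, 67.5, 55.4 and 56.4 against 106, 147, 160.2 and 154 (-1.24 ± 0.15, adjusted p = 0.0011), and ULK1, the kinase gene that starts autophagy, fell as well (-1.23 ± 0.21, adjusted p = 0.0049). ATG5, needed to extend the autophagosome, went the other way (1.03 ± 0.19, adjusted p = 0.00694). Among apoptosis regulators 8 of 29 tested fell and 2 rose (27.6% and 6.9%, against 12.8% and 10.7% of all genes). The counts were 7 and 2 without the library that stood apart, with 5 falls without the WT library on Jagged1 with DMSO. BCL2A1, a survival gene, stood at 3.29, 3.88, 5.57 and 3.37 against 11.3, 12.3, 17.1 and 11.1 in WT (-1.47 ± 0.10, adjusted p = 7.25e-05). The death receptor gene FAS and the BH3-only gene PMAIP1 (NOXA) fell too (-1.05 ± 0.14 and -1.004 ± 0.08). Genes that promote and genes that restrain cell death were thus among the falls.

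Genes of actin filaments and contraction were higher in part. Of 32 listed genes 30 were tested, and 12 rose and 2 fell (median 0.24; shares of all genes 10.7% and 12.8%). The number of rises depended on single libraries, at 8 without the library that stood apart, with 1 fall then and in 6 of the other 7 fits, 3 without NOTCH1KO on Fc with DMSO, 4 without NOTCH1KO on Jagged1 with DMSO or WT on Fc with DMSO, and 5 without WT on Jagged1 with DMSO. TPM1, the tropomyosin gene, stood at 1548, 1304, 1655 and 1182 in NOTCH1KO against 688, 589, 576 and 610.2 in WT (1.20 ± 0.12, adjusted p = 0.000541). The lines did not overlap for this gene. MYL9, the gene of a myosin light chain, stood at 86.03, 42.5, 56.9 and 28.1 against 34.2, 25.8, 21.9 and 24.2 (0.89 ± 0.21, adjusted p = 0.0174), a call lost in 4 of the 8 fits with a library left out, those without a DMSO library of either line (adjusted p up to 0.0567). The smooth muscle actin gene ACTA2 fell (-1.003 ± 0.12, adjusted p = 0.000985). The mesenchymal marker sum, mostly FN1, reached higher values in NOTCH1KO with ranges that overlapped, while VIM averaged lower, as given above. The part of such markers in these differences was not tested.

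Targets of YAP and TEAD, factors that respond to cell tension and density, included 7 rises and 0 falls among 22 tested (31.8% against 10.7%; median 0.29). There were 6 rises without the library that stood apart, and 4 without NOTCH1KO on Fc with DMSO, WT on Fc with DMSO or WT on Jagged1 with DMSO. ANKRD1, a muscle ankyrin repeat gene, stood at 138, 127, 182 and 125 in NOTCH1KO against 64.1, 64, 48.5 and 70.8 in WT (1.19 ± 0.15, adjusted p = 0.00147). TGFB2, the transforming growth factor gene, stood at 37.7, 27.2, 39.4 and 23.8 against 9.05, 6.42, 9.01 and 9.99 (1.76 ± 0.14, adjusted p = 0.000173). CTGF, a matricellular gene, stood at 1210, 568, 1369 and 631 against 620.1, 279, 543 and 316 (1.08 ± 0.12, adjusted p = 0.000683). CTGF was lower with DAPT in both lines, and the groups overlapped, although NOTCH1KO was higher in all 4 pairs. Against NOTCH2KO the list did not show the same direction, with 8 of the 22 members lower and 2 higher in NOTCH1KO. Of all genes, 19.8% were lower and 11.9% higher in that comparison. CTGF did not differ detectably from NOTCH2KO (-0.03, adjusted p = 0.877). The letters CATTCCA, which TEAD factors bind, were found on either strand in 4 of 16 matched promoters of the list and in 2.3% of all 10870. The 2 members with the letters upstream of the start that rose are shown, at chr1:218345131-218345190, plus strand for TGFB2 and chr10:90921177-90921236, minus strand for ANKRD1, where the letters lie on the opposite strand.
TGFB2: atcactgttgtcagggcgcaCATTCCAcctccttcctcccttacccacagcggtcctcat
ANKRD1: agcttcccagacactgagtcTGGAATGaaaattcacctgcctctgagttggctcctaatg

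Cholesterol synthesis genes rose in part, with 7 of 22 tested higher and 0 lower (31.8% higher, against 10.7% of all genes). Their median was 0.30, and the counts were 6 and 0 without the library that stood apart. HMGCS1, an early enzyme gene of the pathway, stood at 103, 130.2, 116 and 96.3 in NOTCH1KO against 36.5, 45.95, 48.7 and 48.1 in WT (1.30 ± 0.10, adjusted p = 0.000116). CYP51A1, a later enzyme gene, stood at 39.6, 51, 37.5 and 39.7 against 20.96, 26.97, 26.1 and 23.5 (0.76 ± 0.09, adjusted p = 0.00122). Against NOTCH2KO, HMGCS1 was higher in NOTCH1KO (1.20, adjusted p = 9.67e-05) and CYP51A1 did not differ detectably (0.08, adjusted p = 0.557). SREBF1, which encodes a factor of lipid synthesis, fell at 7.41, 7.001, 10.6 and 10.8 against 30.7, 26.1, 37.6 and 21.6 (-1.59 ± 0.18, adjusted p = 0.000729). The letters TCACNCCAC of the sterol regulatory element were in 0 of 17 matched promoters of the list and in 1.1% of all. Among kinesins, the motor proteins of microtubules, 8 of 35 tested rose and 2 fell (22.9% and 5.7%, against 10.7% and 12.8% of all genes). The counts were 6 and 2 without the library that stood apart, with 5 rises without WT on Fc with DMSO or with DAPT. KIF5C, a neuronal transport motor gene, stood at 10.2, 9.64, 10.3 and 9.902 against 4.19, 4.18, 5.04 and 3.91 (1.05 ± 0.09, adjusted p = 0.000173), a level not detectably different from NOTCH2KO (-0.15, adjusted p = 0.22).

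Single members stood out in lists that were balanced overall. Of 12 serpin genes tested, which encode protease inhibitors, 4 rose and 4 fell (33.3% each, against 10.7% and 12.8% of all genes). SERPINB7 stood at 9.79, 13.7, 7.11 and 8.66 in NOTCH1KO against 0.797, 1.26, 0.326 and 0.958 in WT (2.55 ± 0.11, adjusted p = 9.51e-06), and SERPINA1, the α1-antitrypsin gene, at 165, 159, 168 and 153 against 55.5, 96.3, 57.5 and 68.6 (1.24 ± 0.14, adjusted p = 0.000741). SERPINB6 fell (-1.18 ± 0.14, adjusted p = 0.00114). Of 55 developmental transcription factor genes tested, 6 rose and 9 fell (10.9% and 16.4%, against 10.7% and 12.8% of all genes). PBX3, a cofactor of HOX proteins on chromosome 9 beyond 70 Mb, stood at 23.4, 24.99, 22.7 and 15.9 in NOTCH1KO against 37.4, 34.5, 53.7 and 52.9 in WT (-0.997 ± 0.19, adjusted p = 0.00722). Neural adhesion and synaptic genes went both ways, with 3 higher and 5 lower of 17 tested (17.6% and 29.4%). NPTX2, a neuronal pentraxin gene, was at 0.13, 0, 0 and 0.0767 against 5.18, 4.71, 7.16 and 6.63 (-2.70 ± 0.14, adjusted p = 2.45e-05), and CNTNAP2, a neurexin family gene, at 10.4, 6.47, 9.31 and 7.47 against 2.96, 3.66, 4.08 and 2.42 (1.13 ± 0.18, adjusted p = 0.00337). Against NOTCH2KO, NPTX2 was lower in NOTCH1KO (-3.13, adjusted p = 5.73e-06) and CNTNAP2 did not differ detectably (0.11, adjusted p = 0.664).

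Matrix and surface genes changed both ways. Of 23 proteoglycan and hyaluronan genes tested 4 rose and 6 fell (4 and 5 without the library that stood apart, and 3 and 3 without WT on Fc with DAPT). The shares were 17.4% and 26.1%, against 10.7% and 12.8% of all genes. SRGN, the gene of the granule proteoglycan serglycin, stood at 19.6, 24.3, 17.2 and 15.9 in NOTCH1KO against 5.83, 5.07, 6.55 and 8.23 in WT (1.45 ± 0.17, adjusted p = 0.00091), whereas GPC2, a neuronal glypican gene, fell at 3.68, 2.96, 4.74 and 6.66 against 11.4, 15.2, 7.505 and 11.8 (-1.18 ± 0.25, adjusted p = 0.0121). The list thus held changes in both directions. Among 17 S100 and annexin genes tested, whose products bind calcium, 2 rose and 2 fell (11.8% each, near the shares of all genes). Only 1 fell without the library that stood apart or without any other library of either line but Jagged1 of NOTCH1KO. ANXA1 stood at 462, 749, 519.6 and 651 against 1152, 1303, 960.4 and 1221 in WT (-0.98 ± 0.11, adjusted p = 0.000655) and ANXA3 at 33.2, 43.02, 18.2 and 26.6 against 14.2, 22.9, 4.54 and 13.2 (1.20 ± 0.15, adjusted p = 0.00112). ANXA1 lies on chromosome 9 beyond 70 Mb, the stretch that was lower as a whole (median -0.78). Keratin 14 (KRT14), an intermediate filament gene of basal epithelium, fell at 1.93, 0.223, 1.68 and 2.62 against 19.2, 8.57, 11.8 and 6.13 (-2.25 ± 0.38, adjusted p = 0.00468) and was not detectably different from NOTCH2KO, at 3.37, 2.47, 1.62 and 0.506 (-0.20, adjusted p = 0.732). The gap junction gene GJB2 fell (-0.94 ± 0.10, adjusted p = 0.000692) and the tight junction gene CLDN1 rose (0.59 ± 0.11, adjusted p = 0.008). Both were lower in NOTCH1KO than in NOTCH2KO (GJB2 -1.53, adjusted p = 4.81e-05, and CLDN1 -0.60, adjusted p = 0.00505).

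Transporter genes included some of the largest single changes. The multidrug transporter family split, with ABCB4, the phospholipid exporter gene, at 7.19, 8.02, 6.43 and 10.5 in NOTCH1KO against 0.166, 0.592, 2.605 and 4.52 in WT (1.86 ± 0.34, adjusted p = 0.00687) and its neighbour ABCB1 at 20.7, 25.2, 12.8 and 26.9 against 9.68, 13.2, 8.32 and 13.6 (0.85 ± 0.18, adjusted p = 0.012), both higher. Neither ABCB4 (-0.32, adjusted p = 0.517) nor ABCB1 (0.45, adjusted p = 0.0905) differed detectably from NOTCH2KO. ABCB9, a lysosomal peptide transporter gene, was lower than in WT (-1.13 ± 0.20, adjusted p = 0.00536). SLC22A18 stood at 0.0887, 0, 0.975 and 2.43 against 9.34, 9.74, 10.1 and 6.61 in WT (-2.58 ± 0.35, adjusted p = 0.00189). KCNN4, a calcium-activated potassium channel gene, fell (-1.24 ± 0.29, adjusted p = 0.0179), a call lost without either library of the Fc plate of WT, or without Jagged1 with DMSO of either line (adjusted p up to 0.0629). Over all 216 solute carrier genes tested, 28 rose and 33 fell (15.3% lower, against 12.8% of all genes), with 19 and 30 without the library that stood apart, 25 to 35 falls over the 8 libraries left out, and 16, 18 and 19 rises without Fc with DMSO of NOTCH1KO, Fc with DMSO of WT and Jagged1 with DMSO of WT.

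Single genes of signalling, vesicle traffic and chromatin were also called. The vitamin A binding protein gene CRABP2 stood at 71.2, 85.9, 72.8 and 129.5 in NOTCH1KO against 40.9, 67.4, 32.4 and 63.7 in WT (0.82 ± 0.15, adjusted p = 0.00697), and RXRA, the retinoid X receptor gene on chromosome 9 beyond 70 Mb, fell (-0.89 ± 0.15, adjusted p = 0.00401). CRABP2 was higher still in NOTCH2KO, with a mean of 182.6 (NOTCH1KO minus NOTCH2KO -1.05, adjusted p = 0.00153). DUSP2, a phosphatase gene that switches off MAP kinases, rose (1.02 ± 0.19, adjusted p = 0.00771) and its relative DUSP5 fell (-0.56 ± 0.11, adjusted p = 0.00898). CLCF1 and SOCS3, a cytokine and a feedback inhibitor of the IL6 family, both fell (-1.02 ± 0.15 and -0.86 ± 0.12, adjusted p = 0.00232 and 0.00203). RAB1A, a GTPase gene of transport from the endoplasmic reticulum, stood at 145, 154, 163 and 140.1 against 43.04, 65.6, 106 and 48.4 in WT (1.27 ± 0.19, adjusted p = 0.00262), not detectably different from NOTCH2KO at 172, 156, 175 and 162 (-0.14, adjusted p = 0.609). TRIM22 and TRIM21, antiviral ubiquitin ligase genes, fell as well (-1.70 ± 0.20 and -0.94 ± 0.10, adjusted p = 0.000943 and 0.000503). DNMT3A, the gene of a DNA methyltransferase, stood at 13.3, 13.4, 10.9 and 12.7 against 30.3, 22.5, 31.8 and 23.1 in WT (-1.03 ± 0.14, adjusted p = 0.00166), and ASXL1, a Polycomb partner gene, rose (0.72 ± 0.09, adjusted p = 0.00145).

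No list of energy metabolism had a share called far above those of all genes, 10.7% higher and 12.8% lower, and several shares were lower. The shares that rose and fell were 11.6% and 7.0% for oxidative phosphorylation and 0.0% and 7.7% for genes encoded in mitochondria. Of 43 nuclear genes of oxidative phosphorylation 5 rose and 3 fell (median 0.01), with 3 rises without either Fc library of NOTCH1KO or either DAPT library of WT, and between 1 and 5 fell when single libraries were left out (1 without Jagged1 with DMSO of either line or Fc with DAPT of WT, 5 without Fc with DAPT of NOTCH1KO). NDUFA8, a complex I gene of chromosome 9 beyond 70 Mb, stood at 87.9, 94.6, 87.1 and 87.9 in NOTCH1KO against 201, 206, 194 and 205 in WT (-1.16 ± 0.06, adjusted p = 2.11e-05). Of 32 proteasome subunit genes 2 rose and 6 fell (6.2% and 18.8%), and PSMB7 and PSMD5, on the same stretch, were 2 of the 6. Without Fc with DMSO or Jagged1 with DMSO of NOTCH1KO, or without any WT library but Jagged1 with DAPT, 1 rose. The glycolytic gene PFKL, which encodes a phosphofructokinase, stood at 26.9, 12.7, 26.4 and 32.9 against 61.5, 63.5, 54.5 and 51.3 (-1.26 ± 0.23, adjusted p = 0.00625). Of 13 genes encoded in mitochondria 1 fell and 0 rose (2 rose when WT on Fc with DMSO was left out). MT-ND4 was listed at 2.04, 1.84, 1.74 and 1.98 in NOTCH1KO against 1.96, 1.89, 3022 and 2772 in WT and at 3488, 1.61, 1.79 and 1.799 in NOTCH2KO, a switch between low and high values that did not follow genotype.

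**Figure D4:**
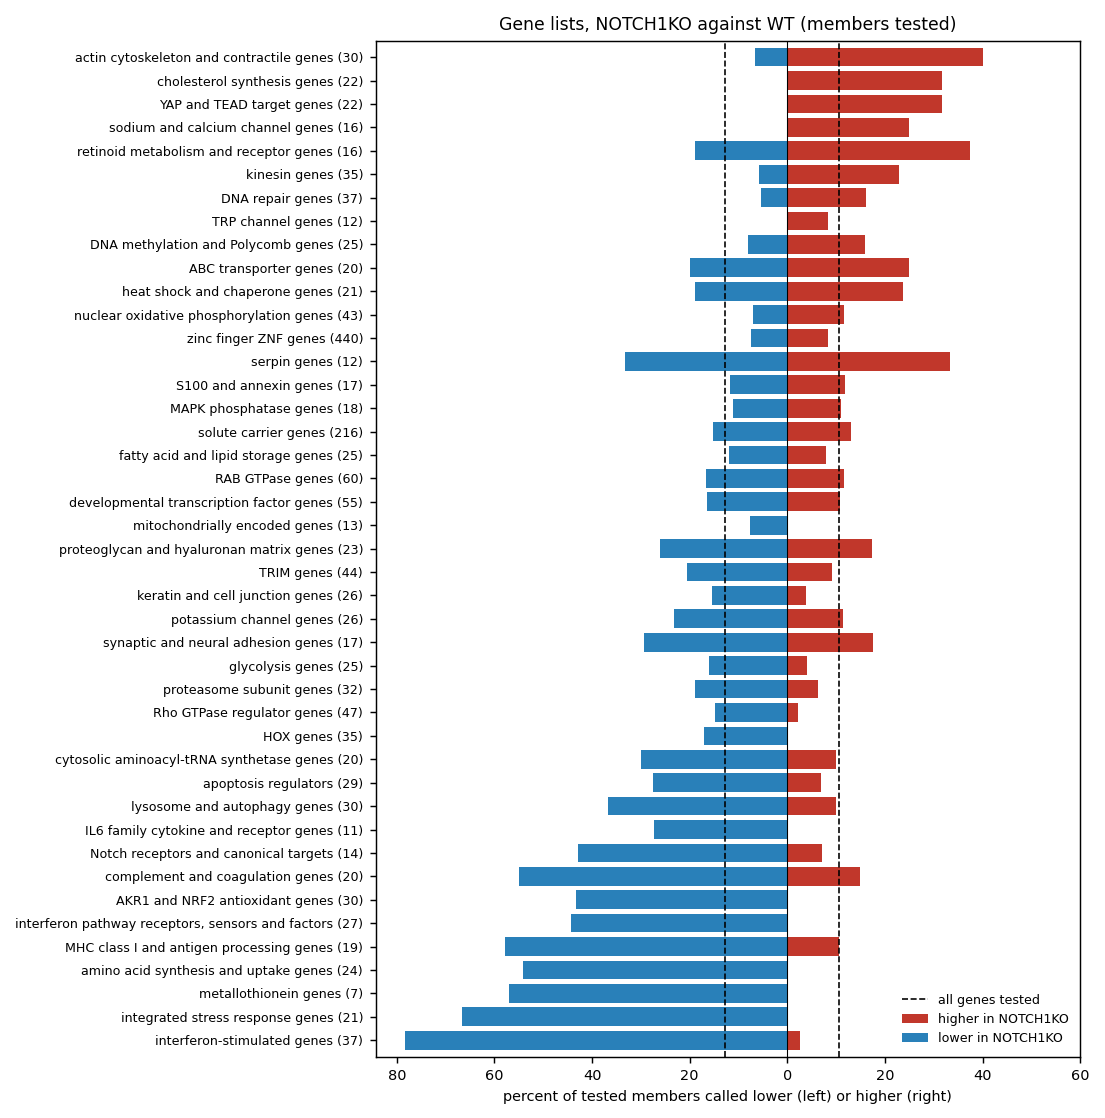
Percent of tested members called higher (red, to the right) or lower (blue, to the left) in NOTCH1KO against WT for 43 gene lists, with the number tested in brackets and dashed lines at the shares of all genes, 10.7% higher and 12.8% lower. Interferon-stimulated genes had 78.4% of members lower and 12 of 30 actin genes were higher.

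Where genes lie on the chromosomes also went with direction. For this, protein-coding genes were kept where their mean reached 5 TPM. Of all 12604 protein-coding genes tested, without this filter, 10.8% were higher and 14.8% lower. On chromosome 9 beyond 70 Mb, 244 of 315 genes fell (77.5%) and 0 rose, with medians between -0.84 and -0.71 in the 4 pairs, a drop that all 4 pairs shared. On the rest of chromosome 9, 34 of 113 genes fell and 8 rose (30.1% lower; median -0.11). Chromosome 1 beyond 125 Mb went the other way, with 149 of 455 genes higher and 22 lower (32.7% and 4.8%, median 0.25). Chromosome 20 had 81 of 275 higher and 12 lower (29.5% and 4.4%, median 0.16). On chromosomes 14, 21 and 11 falls outnumbered rises, with 116 against 4 of 381 genes, 35 against 3 of 106 and 131 against 8 of 595 (medians -0.26, -0.25 and -0.22). The shares lower there were 30.4%, 33.0% and 22.0%. The pair on Fc with DAPT differed from the others on chromosome 19, where its median was -0.44 against 0.00 to 0.18. DNA copy number was not measured here. Without chromosome 9 beyond 70 Mb, 1829 genes were higher and 1911 lower. Of the 29 interferon-stimulated genes and 14 stress genes that fell, 0 and 1 lay on that stretch.

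**Figure D5:**
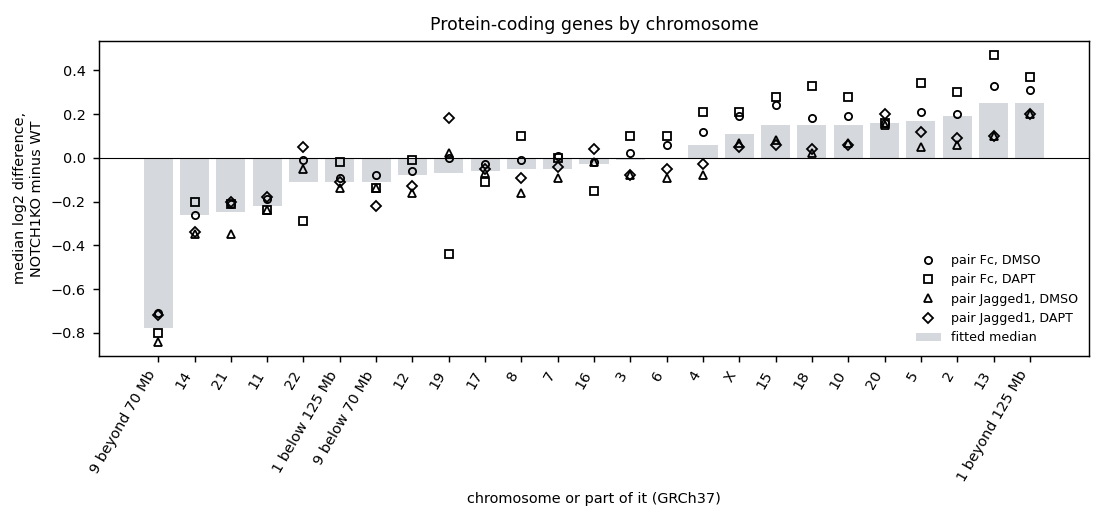
Median log2 difference of NOTCH1KO minus WT (vertical axis) of protein-coding genes for each chromosome or part of it, with the fitted value as a bar and each matched pair as a symbol. Chromosome 9 beyond 70 Mb lies at -0.78, apart from all others, and the symbol of Fc with DAPT departs from the other pairs on chromosome 19.

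The difference between NOTCH1KO and WT was then tested for dependence on the culture. With 4 residual degrees of freedom, 6 genes were called for the Jagged1 plate (0.0341%) and 2 for DAPT (0.0114%), while 2069 and 592 had an unadjusted p under 0.05. None of the 8 was a Notch target named above. The gene listed as MIR4426 stood at 317, 360.5, 329 and 316 in NOTCH1KO against 362.4, 285, 2.69 and 3.26 in WT, where the Jagged1 libraries of WT alone were low (interaction 6.28, adjusted p = 0.000682). The triosephosphate isomerase pseudogene TPI1P2 stood at 1.51, 1.498, 26.4 and 22.5 against 25.2, 24.3, 26.7 and 31.97, low only on the Fc plate of NOTCH1KO. The phosphatase gene PDXP, which passed for DAPT, stood at 0, 0, 49.9 and 0 in NOTCH1KO against 0, 35.5, 32.8 and 38.7 in WT, and the ribosomal protein pseudogene RPL17P50 was at 0, 13.4, 0 and 14.2 against 0 in all 4 WT libraries. In NOTCH2KO PDXP was at 0, 34.1, 30.2 and 33.04, so that each line had libraries at 0 and libraries at a steady level. Taken over DMSO and DAPT together, the plate difference of HES1, HEY1, WISP1 and CYGB did not differ detectably between the lines (interaction -0.07, -0.52, -0.45 and 0.40 on the log2 scale, adjusted p = 0.913, 0.767, 0.75 and 0.743). DAPT inhibits γ-secretase, so this term is not the Jagged1 response with DMSO alone, which was not tested. On simulated data the term recovered 2% of genes changed by 1 on the log2 scale and 54% of those changed by 2.

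The AP-1 letters TGANTCA were searched on both strands in the promoters of the genes that moved most, as the only motif not tied to a list. They were present in 11.7% of 128 promoters of genes that rose by at least 1 on the log2 scale, in 8.3% of 396 promoters of genes that fell by as much, and in 4.7% of all 10870. Among all genes that rose or fell the shares were 4.3% and 5.5%.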

How the data were processed

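RNA from DAOY cells was sequenced in 12 libraries, 8 of which (4 NOTCH1KO, 4 WT) entered the comparison. Per the submitters' processing notes reads were demultiplexed with bcl2fastq 2.17 and CASAVA and referred to GRCh37; the sources used here name no aligner, quantifier or annotation version. The authors deposited, per library, gene levels as TPM, FPKM and coverage; TPM was the main unit, and the deposited FPKM and coverage served as alternatives.

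TPM was summed per gene identifier, genes averaging 1 TPM or more over the 12 libraries were kept, and log2(TPM + 1) was fitted with limma 3.58.1 in R 4.3.3 (terms for genotype and for each of the 4 cultures, moderated variances with a trend, all 12 libraries, Benjamini-Hochberg adjustment, 0.05; 6 residual degrees of freedom, 4 with interactions). The pairing is the labelled plate and drug, which the culture terms hold as a block. Members and gene lists were chosen with earlier results of these data known. Genes were named if they were core Notch or hypoxia-inducible factor genes, the 12 largest rises or falls (called, absolute log2 difference of at least 1, 1 direction in 4 pairs, no overlap, mean TPM of at least 10, no clone-named, antisense, small RNA or pseudogene entries), up to 3 called members per list with a mean TPM of at least 5, or called interactions; some of these genes are not reported here. Promoters came from RefSeq (GRCh38.p14; 10870 tested genes matched). Alternatives changed the pseudocount, filter, unit, scaling, library weights, culture terms and libraries. On simulated data for NOTCH1KO against WT (17621 genes) the fit recovered 62% of 100 genes changed by 1 on the log2 scale and 90% of 100 changed by 2, with 10 false calls; for the interaction with the plate it recovered 2% and 54%. The depth estimated from coverage and FPKM was 18.3 to 20.9 M reads in the NOTCH1KO and WT libraries and 20.8 to 22.4 M in NOTCH2KO. Intervals for counting error were not computed because the values used here are not read counts.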

Additional observations from a re-analysis of the deposited data

Results flagged for a closer look

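Single libraries lay far from the other 3 of their line by Dixon's criterion for 9 of the 66 groups of 4 examined. The rate of about 1 in 20 flagged by chance holds for repeats of 1 condition. Here the 4 libraries of a line were different cultures, so that rate does not apply. Where all other values were 0, as for PAGE2B and CPXM2, any value above 0 is flagged. SPANXA1 and SPANXA2, with equal values, count as separate groups. Jagged1 with DMSO was such a library for HEY1 in NOTCH1KO at 31.5 TPM and in WT at 56.57 TPM, for NOTCH3 in WT at 16.19 TPM and for CYGB in WT at 56.95 TPM, each time the highest. In WT, NOTCH2 was highest on Jagged1 with DAPT at 94.87 TPM, PRR9 highest on Fc with DMSO at 2.172 TPM, and PAGE2B above 0 only on Jagged1 with DMSO at 0.7269 TPM. In NOTCH1KO, Jagged1 with DAPT alone held CPXM2, at 0.03003 TPM, and most of ITGB4, at 1.982 TPM.

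The genotype difference depended on the plate by the interaction term of limma for 6 genes, with a difference on Jagged1 minus that on Fc of 3.5 for AP000318.1, -3.92 for CTB-147C22.3, 6.28 for MIR4426, -4.2 for RP11-392P7.1, -5.16 for RP11-399J13.3 and 3.11 for TPI1P2 on the log2 scale. It depended on the drug for 2 genes, with a difference under DAPT minus that under DMSO of -5.54 for PDXP and 3.89 for RPL17P50.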

How the results depend on the processing

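Against 1884 genes higher and 2253 lower in NOTCH1KO, the counts were 812 and 1200 with the NOTCH2KO libraries left out and 208 and 590 with an absolute log2 difference of at least 1 required. Over the 8 libraries left out in turn, 1116 to 1735 genes were higher and 1509 to 2121 lower, the lowest counts of higher genes being 1116, 1124 and 1128 without WT on Fc with DMSO, NOTCH1KO on Fc with DMSO and WT on Fc with DAPT. Without the culture terms, that is with no replicate block, 1829 were higher and 2165 lower. Centring libraries on their median gave 2459 and 1926 and so reversed which direction was more frequent. Leaving out chromosome 9 beyond 70 Mb, an alternative chosen after seeing the data, gave 1829 and 1911. The genes called for dependence on the plate numbered 11 with a pseudocount of 0.1, in place of 6, and those for dependence on the drug 1 with a pseudocount of 0.1, 1 with a mean TPM of at least 5 and 0 without NOTCH2KO (limma), in place of 2. Of the named genes, AP000318.1 ranged from -0.78 to 0.36 and NOTCH3 from -0.62 to 0.36 as single libraries were left out; neither was called. A single read in a 1-kb transcript was worth an estimated 0.102 to 0.117 TPM in the 8 NOTCH1KO and WT libraries, which bounds the lowest levels that could be told from 0.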
